A study of Mus musculus with 22 samples.

Results

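The 10 genes described here, Ccr7, Fscn1, Cacnb3, Socs2, Il4i1, Ccl17, Ccl22, Tmem123, Tbc1d4 and Samsn1, are a set known to be high in mature migratory dendritic cells (DCs). They were taken by symbol from the 34047 genes of the RNA-seq count table, over all 16 libraries. At their loci, 166 of the 177956 ATAC-seq windows of the series were assigned to them as the closest gene within 50 kb. The study sorted 3 subsets of classical DCs (cDCs) from mice carrying the Tbx21RFP-cre allele, in which red fluorescent protein (RFP) marks cells that express the transcription factor T-bet, and all groups share this allele. Cells were sorted as lineage-negative CD64- Ly6C- CD11c+ MHCII+ cells. The cDC1s were CD11b- XCR1+, the T-bet+ cDC2s were CD11b+ XCR1- RFP+ and the T-bet- cDC2s were CD11b+ XCR1- RFP-. RNA-seq was made from spleen, with 3 libraries per subset, and from mesenteric lymph node (MLN), with 3 for cDC1s and 2 for either cDC2 subset. ATAC-seq was made from spleen alone, with 2 libraries of each subset. Mice of both sexes were 6 to 10 weeks old and the labels name no treatment, and each RNA library pooled the cells of a pair of mice. The sort of the bulk libraries, as described, did not separate migratory from resident cells within the MLN, so an MLN library may hold both in a proportion that is not known.

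DCs that mature in a peripheral tissue change their program and leave through lymphatic vessels. They follow the chemokines CCL19 and CCL21, which bind the receptor encoded by Ccr7, and in the lymph node they present antigen to T cells. The spleen has no afferent lymphatics, so its cDCs are resident cells or cells that matured in place. Mature migratory DCs are known for chemokines that draw CCR4-bearing T cells, for an actin-bundling protein that forms dendrites, and for regulators that limit cytokine and receptor signaling.

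Reads counted on genes were 20993220 to 29006549 per RNA library, and reads in peaks 9335612 to 12803133 per ATAC-seq library. The sort could be read in cDC1 markers and in Tbx21: the summed level of 5 cDC1 markers was 4853 to 6006 CPM (counts scaled to the library's total) in spleen cDC1s and 2897 to 5403 CPM in MLN cDC1s, against 58.3 to 511 CPM in the cDC2 libraries. Tbx21, the gene of T-bet, was at 17.2 to 24.9 CPM in spleen T-bet+ cDC2s and at 2.93 to 7.19 CPM in MLN T-bet+ cDC2s, and no other library was above 2.38 CPM. Spleen libraries fell into 2 classes that the subsets do not explain, by how a library's counts followed the GC content of transcripts. The higher class holds every spleen T-bet+ library with T-bet- replicate 3 and cDC1 replicates 1 and 2, and each MLN library is in the lower class. This class was set on deviations from the mean of all 16 libraries. With deviations taken within MLN, cDC1 replicates 2 and 3 and T-bet- replicate 2 had a rank correlation with GC content of 0.203 to 0.252 and the other 4 MLN libraries of -0.326 to -0.0366, so MLN also splits by the limit of 0.1. For T-bet+ cDC2s the tissue and this class cannot be told apart by comparing libraries of that subset. Among MLN libraries, cDC1 replicate 1 and T-bet+ replicate 1 stood apart from the other 5 for the genes of this report. For some members and for the counts of members called, results are also given without them.

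Markers of DCs moved with tissue as well. The 4 cDC2 markers summed to 1369 to 2926 CPM in spleen cDC2 libraries and to 461 to 1064 CPM in those of MLN, with Cd209a called lower in T-bet- cDC2s (log2 fold change -3.01 ± 0.48, adjusted p = 0.00403, lost without MLN T-bet- replicate 1 at 0.0718). The 5 markers of all conventional DCs summed to 64717 CPM or more in every spleen library and to 61536 CPM or less in every MLN library. A list of 4 genes drawn up for intestinal and skin migratory DCs held Itgae, Cd207, Epcam and Cd24a. It summed to 1311 to 1448 CPM in spleen cDC1s and to 446 to 1101 CPM in MLN cDC1s. In the cDC2 libraries it summed to 29.2 to 44.8 CPM in spleen and 41.9 to 82.6 CPM in MLN. The sums were highest in spleen cDC1s and followed the subset, so the list is not read as a measure of migration. Cd207, the gene of langerin, was called lower in MLN cDC1s at -2.64 ± 0.81 (adjusted p = 0.0489), a call lost without any one cDC1 library but MLN replicate 1 (adjusted p = 0.0565 to 0.184). From the same list, Itgae and Cd24a were called higher in MLN T-bet+ cDC2s, with 0 lower. The 4 genes had a median log2 fold change of 1.31 there, and none was called in T-bet- cDC2s. Fits of Itgae and Cd24a without single libraries are not given. The cDC1 markers Clec9a and Tlr3 were called higher in MLN T-bet+ cDC2s, by 5.06 ± 1.10 and 2.13 ± 0.55 (adjusted p = 0.0214 and 0.0408). Without MLN T-bet+ replicate 2 they were at 0.98 and 1.72 (adjusted p = 0.721 and 0.427), and neither call held without any one spleen T-bet+ library. The genes named in this paragraph were picked after their values were seen.

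Markers of some other cells also moved with tissue. The summed level of 6 T cell genes was 0.0810 to 5.65 CPM over the spleen libraries and 3.65 to 19.3 CPM over the MLN libraries, with Lck and Cd28 at 0 in spleen cDC1s, and 3 of 6 passed the test as higher in MLN cDC1s. The 4 innate lymphoid genes summed to 1.34 to 11.4 CPM in spleen and 21.5 to 217 CPM in MLN, of which Il7r alone passed, in all 3 subsets. Neutrophil genes summed to 17.2 to 56.8 CPM in spleen and 0 to 3.47 CPM in MLN, and 3 erythroid genes to 3.0 to 10.4 CPM in spleen and 0 to 0.376 CPM in MLN. No plasmacytoid DC gene was called in any subset, and no natural killer gene was tested. The lists for B cells, for monocytes and macrophages, and for stroma had at most 1 gene called higher and 1 lower in a subset. The part of these cells, and of the DC markers, in the results was not tested.

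Expression of the set was compared between MLN and spleen within each subset, which is the comparison of a node that receives migrating DCs with an organ that does not. In cDC1s 7 of the 9 members tested were higher in MLN (adjusted p under 0.05, edgeR's quasi-likelihood test over 16795 genes), beside 7.75% of all genes tested. In T-bet- cDC2s 5 were higher, beside 4.36%, and in T-bet+ cDC2s 4 were higher, beside 3.79%. No tested member was lower in MLN in any subset, beside 3.93%, 1.59% and 1.30% of all genes. The members were chosen with earlier results of these data known, so these counts are a description. The median log2 fold change over the 9 members was 3.52 in cDC1s, 3.19 in the T-bet- subset and 1.43 in the T-bet+ subset, and over all genes it was 0.01, -0.04 and 0.00. Cacnb3, Socs2, Ccl17 and Ccl22 were called in all 3 subsets, Fscn1 in cDC1s and T-bet- cDC2s, and Ccr7 and Samsn1 in cDC1s. Tmem123 and Tbc1d4 were called in no subset. The tenth member, Il4i1, had 0 to 9 reads per library and was not tested. In sorted bulk cells, fewer cells of a type and less RNA per cell cannot be told apart, and p-values measure the spread between these libraries.

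**Figure D1:**
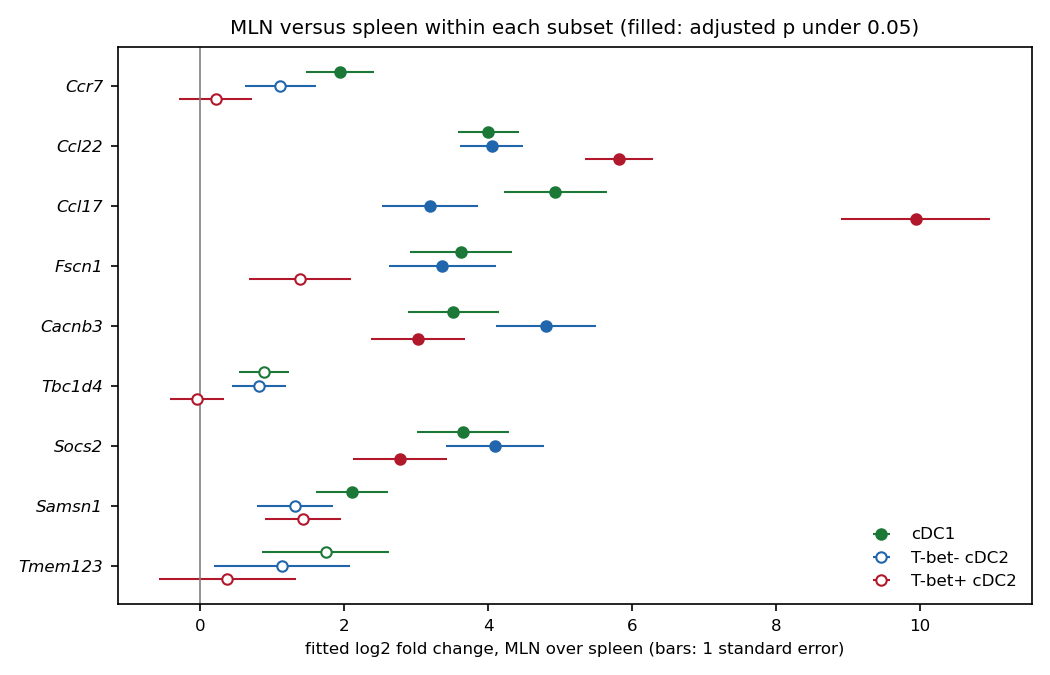
Fitted log2 fold change of MLN over spleen (horizontal axis) for 9 genes (vertical axis) in cDC1s (green), T-bet- cDC2s (blue) and T-bet+ cDC2s (red), with bars of 1 standard error and filled points for adjusted p under 0.05. Ccl22 lies at 4.0, 4.05 and 5.82, while Tbc1d4 lies at 0.89, 0.81 and -0.04; the Ccl17 point of T-bet+ cDC2s is a fitted value against libraries at 0 or 1 read.

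Ccr7 encodes the receptor that guides DCs along CCL19 and CCL21 into the T cell zone. Its gene lies at chr11:99144196-99155077 on the minus strand of GRCm38 (mm10). In spleen, replicates 1 to 3 stood at 1923, 1249.7 and 2230.2 CPM in cDC1s, at 4845, 4496 and 3476 CPM in the T-bet- subset and at 4218, 4014 and 4537 CPM in the T-bet+ subset. In MLN the levels were 2556, 9240.5 and 9011 CPM in cDC1s, 8785 and 9742 CPM in T-bet- cDC2s, and 2173 and 7714 CPM in T-bet+ cDC2s. Every MLN library of cDC1s and of T-bet- cDC2s was above all spleen libraries of its subset, while the T-bet+ libraries overlapped between tissues. The log2 fold change was 1.95 ± 0.47 (SE) in cDC1s (adjusted p = 0.0186), 1.12 ± 0.50 in T-bet- cDC2s (adjusted p = 0.188) and 0.22 ± 0.50 in T-bet+ cDC2s (adjusted p = 0.812) by edgeR. The cDC1 call did not hold without MLN cDC1 replicate 2 or 3 or spleen cDC1 replicate 1 or 2 (adjusted p = 0.0827, 0.0750, 0.0727 and 0.0895), nor with the GC class as a term (adjusted p = 0.102). In T-bet+ cDC2s the sign turned with that term (-0.24) and without MLN T-bet+ replicate 2 (-0.98). With both MLN libraries that stood apart left out, the change was 2.29 in cDC1s and 1.09 in T-bet- cDC2s, both called (adjusted p = 7.85e-05 and 0.0132), and 0.93 in T-bet+ cDC2s (adjusted p = 0.0735). Ccr7 was thus already abundant in spleen, and of all members it had the highest level per kilobase of exon in each group.

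At the Ccr7 locus, 13 ATAC-seq windows of 150 bases were assigned and all were tested, in spleen cells only. Of 4 windows called in at least 1 comparison, 2 are printed, the one of lowest adjusted p and the one nearest to a start: the first lies 25.59 kb downstream of the nearest start, beyond the end of the gene, and the second 5.91 kb before the start. Sequences here and at the other loci are GRCm38 on the strand of the gene, and capitals mark a match to one of 4 motifs searched on both strands (NF-kB-like GGNNTTTCC, composite ETS-IRF GGAANNGAA, AP-1 TGANTCA and STAT TTCNNNGAA).
Ccr7 window at 25.59 kb, chr11:99129417-99129566, minus strand: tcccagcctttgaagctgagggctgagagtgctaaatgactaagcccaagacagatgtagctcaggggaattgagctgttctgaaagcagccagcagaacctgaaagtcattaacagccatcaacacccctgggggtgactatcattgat
Ccr7 window at -5.91 kb, chr11:99160916-99161065, minus strand: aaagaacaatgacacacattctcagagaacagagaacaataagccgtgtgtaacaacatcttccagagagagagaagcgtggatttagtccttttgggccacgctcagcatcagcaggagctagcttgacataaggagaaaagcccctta
Neither window holds a match. The first had 2.49 and 4.18 CPM in cDC1s, 0.247 and 1.21 in the T-bet- subset and 0.109 and 0.209 in the T-bet+ subset. It was open mainly in cDC1s, with a log2 fold change of -4.26 ± 0.70 for T-bet+ cDC2s over cDC1s (adjusted p = 8.27e-07) and -2.09 ± 0.53 for T-bet- cDC2s over cDC1s (adjusted p = 0.00154, lost without T-bet- replicate 1 at 0.0653 and without cDC1 replicate 2 at 0.110). The window before the start had 13.1 and 15.5 CPM in cDC1s, 9.62 and 11.0 in the T-bet- subset and 22.5 and 16.2 in the T-bet+ subset. It was more open in T-bet+ cDC2s than in their T-bet- counterparts by 0.90 ± 0.22 on the log2 scale (adjusted p = 0.00287), a call lost without T-bet- replicate 1 or 2 or T-bet+ replicate 1 (adjusted p = 0.0618, 0.0179 and 0.108). Both further called windows were more open in a cDC2 subset than in cDC1s. The one 27.13 kb downstream of the start had 1.19 and 1.44 CPM in cDC1s, 3.58 and 3.95 in the T-bet- subset and 1.85 and 0.836 in the T-bet+ subset, and was more open in T-bet- cDC2s by 1.52 ± 0.45 (log2, adjusted p = 0.00650), a call lost without any one library of the 2 subsets (adjusted p = 0.0165 to 0.0751). The one 18.52 kb downstream had 0.356 and 1.57 CPM in cDC1s, 1.23 and 1.62 in the T-bet- subset and 3.48 and 4.08 in the T-bet+ subset, and was more open in T-bet+ cDC2s by 1.99 ± 0.48 (adjusted p = 0.000614, lost without cDC1 replicate 1 at 0.0827).

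Ccl22 and Ccl17 encode chemokines that attract CCR4-bearing T cells, and the genes are neighbors on chromosome 8. Ccl22 (chr8:94745590-94751699, plus strand) stood in spleen at 97.8, 66.5 and 100.3 CPM in cDC1s, at 92.3, 75.7 and 61.7 CPM in the T-bet- subset and at 14.5, 12.6 and 12.9 CPM in the T-bet+ subset. In MLN it stood at 751, 1593 and 1902 CPM in cDC1s, at 1395 and 1146 CPM in the T-bet- subset and at 373 and 1133 CPM in the T-bet+ subset. Each MLN library was above every spleen library, and the lowest levels of all were in spleen T-bet+ cDC2s. The log2 fold change of MLN over spleen was 4.0 ± 0.42 in cDC1s (adjusted p = 0.000308), 4.05 ± 0.44 in T-bet- cDC2s (adjusted p = 0.000911) and 5.82 ± 0.47 in T-bet+ cDC2s (adjusted p = 0.000102). These 3 calls held in all 8 other fits and without any single library.

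Ccl17 (chr8:94810453-94812036, plus strand) was counted at far fewer reads. The spleen libraries held 6, 4 and 23 reads in cDC1s, 49, 88 and 49 in T-bet- cDC2s, and 0, 1 and 0 in T-bet+ cDC2s. The MLN libraries held 276, 341 and 547 reads in cDC1s, 630 and 833 in T-bet- cDC2s, and 230 and 702 in T-bet+ cDC2s. No MLN library overlapped a spleen library, and the spleen T-bet+ libraries were at or under the 3 reads taken as the floor per library. The log2 fold change was 4.94 ± 0.71 in cDC1s (adjusted p = 0.00152) and 3.19 ± 0.67 in T-bet- cDC2s (adjusted p = 0.0141). In T-bet+ cDC2s the mean MLN level was at least 143-fold higher, with spleen taken at the floor (adjusted p = 0.000996), a limit that was 69.5-fold for the lower of the 2 MLN libraries. The T-bet- call missed the threshold without MLN T-bet- replicate 1 or 2 (adjusted p = 0.0528 and 0.0913).

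The sequence before each of these 2 genes is shown because the pair rose in every subset. It comes from the RefSeq promoter table on GRCm38.p6 and ends at the base before the annotated start.
Ccl22 upstream sequence, chr8:94745434-94745589, plus strand: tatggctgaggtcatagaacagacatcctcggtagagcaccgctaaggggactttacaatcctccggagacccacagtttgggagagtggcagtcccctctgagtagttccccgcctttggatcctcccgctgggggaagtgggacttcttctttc
Ccl17 upstream sequence, chr8:94810203-94810452, plus strand: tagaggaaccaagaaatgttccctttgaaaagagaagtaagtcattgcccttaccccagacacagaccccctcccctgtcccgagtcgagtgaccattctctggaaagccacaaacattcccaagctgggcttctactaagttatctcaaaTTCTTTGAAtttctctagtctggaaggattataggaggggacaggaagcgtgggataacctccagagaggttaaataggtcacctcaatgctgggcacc
The Ccl22 sequence holds none of the 4 motifs, and in the Ccl17 sequence the capitals mark a STAT match, which 8.30% of the 32851 promoters in the table also hold. In spleen ATAC-seq, 6 windows were assigned to Ccl22 and 7 to Ccl17, none of them within 2 kb of a start. The window of lowest adjusted p at each gene is given next, because both were more open in cDC1s than in either cDC2 subset.
Ccl22 window at -10.84 kb, chr8:94734681-94734830, plus strand: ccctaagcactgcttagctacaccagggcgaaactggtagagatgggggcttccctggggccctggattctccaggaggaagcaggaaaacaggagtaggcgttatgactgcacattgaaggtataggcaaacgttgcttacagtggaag
Ccl17 window at -6.38 kb, chr8:94804004-94804153, plus strand: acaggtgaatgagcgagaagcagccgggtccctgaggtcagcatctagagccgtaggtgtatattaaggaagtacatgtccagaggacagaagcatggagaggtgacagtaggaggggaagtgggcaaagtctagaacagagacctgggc
Neither holds a match. The Ccl17 window had 7.72 and 7.97 CPM in cDC1s, 1.36 and 2.53 in the T-bet- subset and 2.28 and 2.30 in the T-bet+ subset, and its log2 fold change was -1.77 ± 0.35 for T-bet+ cDC2s over cDC1s (adjusted p = 3.37e-05) and -1.98 ± 0.36 for T-bet- cDC2s over cDC1s (adjusted p = 1.06e-05). The Ccl22 window had 3.80 and 4.96 CPM in cDC1s, 1.60 and 1.32 in the T-bet- subset and 0.870 and 0.941 in the T-bet+ subset. Its log2 fold change was -2.25 ± 0.45 for T-bet+ cDC2s over cDC1s (adjusted p = 3.85e-05) and -1.58 ± 0.42 for T-bet- cDC2s over cDC1s (adjusted p = 0.00250), the latter lost without T-bet- replicate 1 or 2 or cDC1 replicate 2 (adjusted p = 0.0123, 0.0423 and 0.0556). The RNA of Ccl17 did not follow this order in spleen, since it was lower in cDC1s than in T-bet- cDC2s. Another Ccl22 window, 11.6 kb before the start, was less open in T-bet+ cDC2s than in their T-bet- counterparts (log2 fold change -1.9 ± 0.51, adjusted p = 0.00642), a call lost without any one library of these subsets (adjusted p = 0.0197 to 0.0535).

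Fscn1 encodes fascin, which bundles actin in the dendrites of mature DCs, and Cacnb3 encodes an accessory beta subunit of voltage-gated calcium channels. Fscn1 (chr5:142960343-142973185, plus strand) stood in spleen at 72.9, 97.5 and 64.8 CPM in cDC1s, at 21.3, 33.7 and 72.9 CPM in the T-bet- subset and at 81.9, 83 and 130.5 CPM in the T-bet+ subset. In MLN it stood at 213, 1317 and 1373.5 CPM in cDC1s, at 272 and 608 CPM in the T-bet- subset and at 95.6 and 419 CPM in the T-bet+ subset. MLN T-bet+ replicate 1 lay within the spleen range of its subset, and the other subsets did not overlap between tissues. Fscn1 was higher in MLN cDC1s by 3.63 ± 0.71 (log2, adjusted p = 0.00739) and in MLN T-bet- cDC2s by 3.37 ± 0.74 (adjusted p = 0.0181), and in T-bet+ cDC2s the value was 1.39 ± 0.71 (adjusted p = 0.227). The T-bet- call was lost without MLN T-bet- replicate 2 or spleen T-bet- replicate 1 or 2 (adjusted p = 0.124, 0.0588 and 0.0689). Without MLN T-bet+ replicate 2 the T-bet+ value was -0.05, and without both MLN libraries that stood apart it was 2.16 (adjusted p = 0.0201).

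Cacnb3 (chr15:98630840-98644529, plus strand) stood in spleen at 146, 103 and 216 CPM in cDC1s, at 42.4, 45.4 and 70.2 CPM in the T-bet- subset and at 79.3, 89.5 and 135 CPM in the T-bet+ subset. In MLN it reached 544, 2646 and 2140.0 CPM in cDC1s, 1471 and 1465 CPM in T-bet- cDC2s, and 242 and 1409 CPM in T-bet+ cDC2s. All MLN libraries were above all spleen libraries. The log2 fold change was 3.52 ± 0.63 in cDC1s (adjusted p = 0.00495), 4.80 ± 0.70 in T-bet- cDC2s (adjusted p = 0.00275) and 3.03 ± 0.65 in T-bet+ cDC2s (adjusted p = 0.0201). The T-bet+ call held in 1 of the 5 fits that left out a library of that subset. Without MLN T-bet+ replicate 2 the change was 1.25 (adjusted p = 0.514), without spleen T-bet+ replicate 1, 2 or 3 the adjusted p was 0.0894, 0.0756 and 0.0517, and with the GC class as a term it was 0.172.

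The windows at these 2 genes that separated spleen subsets best are printed next.
Fscn1 window at -2.91 kb, chr5:142957360-142957509, plus strand: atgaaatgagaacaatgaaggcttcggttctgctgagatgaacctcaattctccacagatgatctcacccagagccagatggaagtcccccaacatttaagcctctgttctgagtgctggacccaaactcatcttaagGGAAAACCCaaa
Cacnb3 window at 0.85 kb, chr15:98640267-98640416, plus strand: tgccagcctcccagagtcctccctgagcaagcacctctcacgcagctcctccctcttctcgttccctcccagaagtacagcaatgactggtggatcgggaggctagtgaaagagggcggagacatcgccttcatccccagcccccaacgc
The capitals in the Fscn1 window mark an NF-kB-like match, found in 3.45% of all windows. This window had 0.95 and 2.61 CPM in cDC1s, 1.48 and 3.14 in the T-bet- subset and 5.22 and 5.02 in the T-bet+ subset, a log2 fold change of 1.54 ± 0.41 for T-bet+ cDC2s over cDC1s (adjusted p = 0.00199). It was the only window called among the 8 tested at Fscn1, in any of the 3 comparisons, and the call was lost without cDC1 replicate 1 (adjusted p = 0.139). The Cacnb3 window is centered 0.85 kb into an isoform that begins inside the gene and covers 78 bases of exon. It had 4.51 and 6.53 CPM in cDC1s, 1.73 and 0.607 in the T-bet- subset and 0.761 and 0.523 in the T-bet+ subset. It was open mainly in cDC1s, with a log2 fold change of -3.08 ± 0.48 for T-bet+ cDC2s over cDC1s (adjusted p = 2.32e-07) and -2.27 ± 0.44 for T-bet- cDC2s over cDC1s (adjusted p = 3.04e-05, lost without T-bet- replicate 2 at 0.0106). Cacnb3 RNA was also highest in cDC1s by mean in spleen, but edgeR called neither T-bet+ nor T-bet- cDC2s different from them (adjusted p = 0.531 and 0.0982). Of 5 windows tested at Cacnb3, T-bet+ cDC2s had 1 more and 2 less open than cDC1s (median log2 fold change 0.64). The T-bet- subset had 0 more and 2 less open (median -0.41).

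Socs2 and Samsn1 encode negative regulators of signaling, the first an SH2-domain protein of the cytokine receptor pathway and the second an adaptor with SH3 and SAM domains. Socs2 (chr10:95385362-95417180, minus strand) stood in spleen at 20.4, 16.4 and 27.1 CPM in cDC1s, at 15, 13.5 and 31.6 CPM in the T-bet- subset and at 38.2, 29.6 and 49.8 CPM in the T-bet+ subset. In MLN it stood at 86.5, 387 and 332 CPM in cDC1s, at 294 and 392 CPM in the T-bet- subset and at 82.7 and 457 CPM in the T-bet+ subset. No MLN library fell into the spleen range. Socs2 was higher in MLN by 3.65 ± 0.64 in cDC1s (log2, adjusted p = 0.00419), by 4.09 ± 0.68 in T-bet- cDC2s (adjusted p = 0.00473) and by 2.78 ± 0.65 in T-bet+ cDC2s (adjusted p = 0.0284). The T-bet+ call was lost without MLN T-bet+ replicate 2 (1.07, adjusted p = 0.558), without spleen T-bet+ replicate 1, 2 or 3 (adjusted p = 0.104, 0.0962 and 0.0672) and with the GC class as a term (adjusted p = 0.161). All 8 windows assigned to Socs2 were within 2 kb of a start, and none was called in any of the 3 ATAC-seq comparisons.

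Samsn1 (chr16:75858793-76022281, minus strand) stood in spleen at 154, 134 and 185 CPM in cDC1s, at 432, 345 and 266 CPM in the T-bet- subset and at 336, 339 and 273 CPM in the T-bet+ subset. Its MLN levels were 241, 956 and 836 CPM in cDC1s, 984 and 748 CPM in T-bet- cDC2s, and 324 and 1374 CPM in T-bet+ cDC2s. MLN T-bet+ replicate 1 overlapped the spleen libraries of its subset. The change was 2.1 ± 0.50 in cDC1s (log2, adjusted p = 0.0179), 1.32 ± 0.53 in T-bet- cDC2s (adjusted p = 0.149) and 1.43 ± 0.53 in T-bet+ cDC2s (adjusted p = 0.113). The cDC1 call was lost without MLN cDC1 replicate 2 or 3 or spleen cDC1 replicate 1 or 2 (adjusted p = 0.0829, 0.0673, 0.0764 and 0.0819) and with the GC class as a term (adjusted p = 0.103). Without both MLN libraries that stood apart, Samsn1 was called in all 3 subsets, at 2.46, 1.29 and 2.19 (adjusted p = 7.40e-05, 0.00713 and 0.000696). Of the 44 windows tested at this gene, the one printed next had the lowest adjusted p. It lies in an intron, and its distance is to the start of an isoform that begins inside the gene.
Samsn1 window at -7.91 kb, chr16:75961172-75961321, minus strand: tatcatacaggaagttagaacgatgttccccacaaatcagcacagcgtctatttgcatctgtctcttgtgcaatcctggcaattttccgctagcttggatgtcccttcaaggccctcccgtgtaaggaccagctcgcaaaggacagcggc
It had 4.04 and 6.14 CPM in cDC1s, 21.2 and 29.2 in the T-bet- subset and 7.72 and 8.68 in the T-bet+ subset, and holds none of the motifs. The T-bet- libraries stood above all others, with a log2 fold change of 2.32 ± 0.25 for T-bet- cDC2s over cDC1s and -1.62 ± 0.23 for T-bet+ over T-bet- cDC2s (adjusted p = 2.40e-07). Samsn1 RNA in spleen was also lowest in cDC1s, while its levels in the cDC2 subsets overlapped. Over the 44 windows, T-bet- cDC2s had 4 more and 5 less open than cDC1s, and T-bet+ cDC2s had 8 more and 7 less open.

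Tbc1d4 encodes a Rab GTPase-activating protein that controls the traffic of glucose transporter vesicles, and Tmem123 a membrane protein of the cell surface. Tbc1d4 (chr14:101442360-101609191, minus strand) stood in spleen at 408, 523 and 724 CPM in cDC1s, at 1265, 664 and 787 CPM in the T-bet- subset and at 2155, 2323 and 1609.5 CPM in the T-bet+ subset. In MLN it stood at 553, 1183 and 1327 CPM in cDC1s, at 1563 and 1620.2 CPM in the T-bet- subset and at 1533.5 and 2407 CPM in the T-bet+ subset. Unlike the other members it was highest in T-bet+ cDC2s by mean in both tissues. The MLN over spleen values were 0.89 ± 0.34 in cDC1s (log2, adjusted p = 0.0980), 0.81 ± 0.37 in T-bet- cDC2s (adjusted p = 0.199) and -0.04 ± 0.38 in T-bet+ cDC2s (adjusted p = 0.958), and none was called. Without both MLN libraries that stood apart, the cDC1 value was 1.13 and passed (adjusted p = 0.0258). The following window in an intron had the lowest adjusted p of the 51 tested at this locus, and it holds an AP-1 match (capitals), as do 7.90% of all windows. The distance printed with it is to the start of an isoform that begins inside the gene.
Tbc1d4 window at -17.53 kb, chr14:101480677-101480826, minus strand: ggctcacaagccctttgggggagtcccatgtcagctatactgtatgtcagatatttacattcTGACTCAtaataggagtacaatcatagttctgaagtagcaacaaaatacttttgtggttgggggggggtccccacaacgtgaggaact
It had 12.2 and 9.79 CPM in cDC1s, 32.1 and 26.7 in the T-bet- subset and 59.5 and 56.4 in the T-bet+ subset. The 3 subsets did not overlap, and the log2 fold change was 0.98 ± 0.17 for T-bet+ over T-bet- cDC2s (adjusted p = 1.75e-05), 2.39 ± 0.19 for T-bet+ cDC2s over cDC1s and 1.41 ± 0.19 for T-bet- cDC2s over cDC1s. The order of openness was the order of mean Tbc1d4 RNA in spleen. A window 1.33 kb from a start held 1.66 and 1.18 CPM in cDC1s, 3.95 and 3.64 in the T-bet- subset and 12.8 and 14.0 in the T-bet+ subset (log2 fold change 1.82 ± 0.29 for T-bet+ over T-bet- cDC2s, adjusted p = 2.80e-06).

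Tmem123 (chr9:7764041-7794333, plus strand) varied widely within groups. In spleen it stood at 504, 587 and 153 CPM in cDC1s, at 140.4, 150.1 and 1134 CPM in the T-bet- subset and at 789, 714 and 654 CPM in the T-bet+ subset. The 6 spleen libraries of the higher GC class held 504 CPM or more and the 3 of the lower class 153 CPM or less. The MLN levels were 305, 1781 and 2082 CPM in cDC1s, 695 and 1402 CPM in T-bet- cDC2s, and 277 and 1595 CPM in T-bet+ cDC2s. The values of 1.74 ± 0.88, 1.14 ± 0.94 and 0.38 ± 0.95 (log2) passed in no subset (adjusted p = 0.195, 0.467 and 0.825). With the GC class as a term the cDC1 value was 3.53 and passed (adjusted p = 0.0238). A window in an intron is printed because it followed the subsets.
Tmem123 window at 12.04 kb, chr9:7776127-7776276, plus strand: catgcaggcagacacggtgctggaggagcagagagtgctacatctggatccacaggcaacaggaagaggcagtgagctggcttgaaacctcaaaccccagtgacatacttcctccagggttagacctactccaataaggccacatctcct
It had 11.4 and 9.93 CPM in cDC1s, 16.2 and 15.4 in the T-bet- subset and 28.4 and 27.5 in the T-bet+ subset, with a log2 fold change of 0.83 ± 0.20 for T-bet+ over T-bet- cDC2s (adjusted p = 0.00211, lost without T-bet- replicate 1 or 2 at 0.0245 and 0.0506) and 1.39 ± 0.21 for T-bet+ cDC2s over cDC1s (adjusted p = 9.85e-08). It holds none of the motifs. Il4i1, which encodes a secreted L-amino acid oxidase, was listed at 0 to 0.390 CPM. Of its annotated exon bases 86.3% overlap exons of Atf5, Nup62 and Tbc1d17, and whether the counting used strand is not given in the sources used here, so its level is uncertain. The genes Mir5618, Gm34417 and Gm15555 overlap Tmem123, Tbc1d4 and Samsn1, in that order, but share 0 exon bases with them in GENCODE M21.

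**Figure D2:**
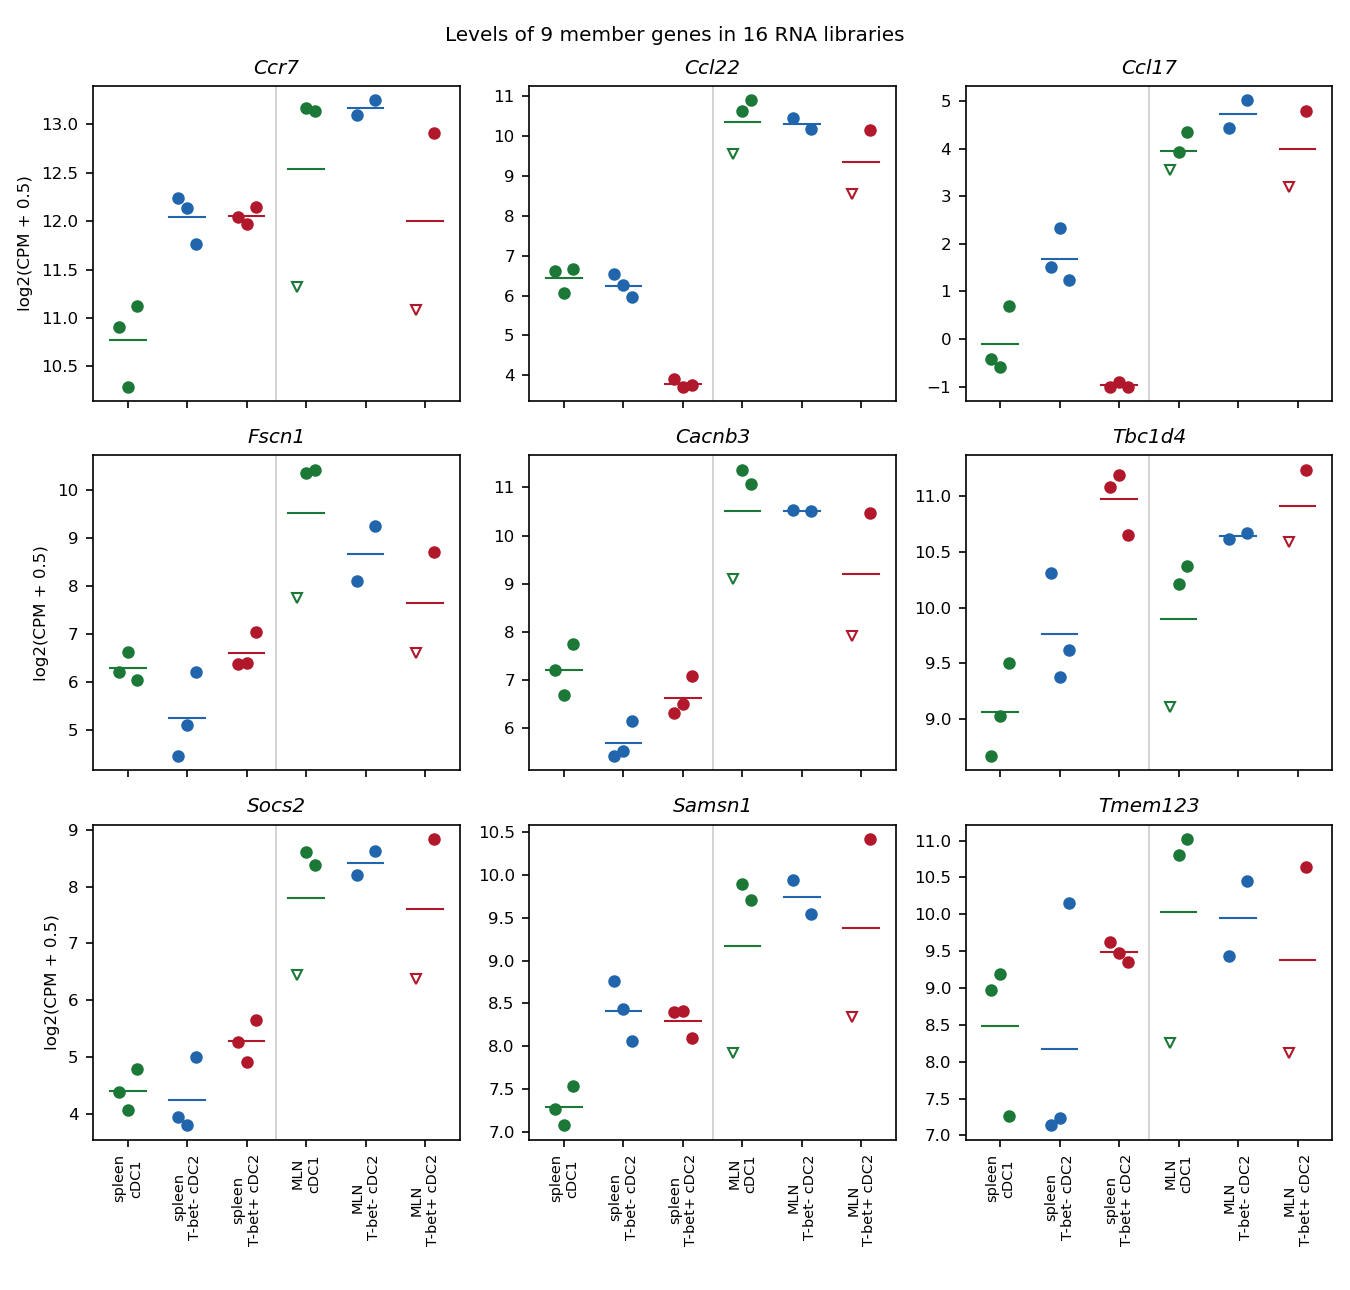
Levels of 9 genes on a log2(CPM + 0.5) scale (vertical axes) in the 16 RNA libraries by tissue and subset (horizontal axis), with 1 point per library, a line at the mean, and open triangles for MLN cDC1 replicate 1 and MLN T-bet+ replicate 1. For Cacnb3, Socs2, Ccl17 and Ccl22 all 7 MLN libraries lie above all 9 spleen libraries, and both triangles lie below the other 5 MLN libraries in 8 genes, all but Tbc1d4.

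On a scale of reads per kilobase of exon, scaled to library size (RPKM), which allows levels of different genes to be set side by side, Ccr7 led in every group, with a mean of 911 in spleen cDC1s, 2160 in spleen T-bet- cDC2s, 2152 in spleen T-bet+ cDC2s, 3506.5 in MLN cDC1s, 4683 in MLN T-bet- cDC2s and 2499 in MLN T-bet+ cDC2s. In MLN cDC1s the next were Ccl22 at 609, Tmem123 at 447, Cacnb3 at 443 and Fscn1 at 321 RPKM. In spleen cDC1s these 4 stood at 37.9, 133, 38.7 and 26 RPKM. Socs2, at 28.2 RPKM, and Ccl17, at 29.8 RPKM, were low even in MLN cDC1s. In the order of the 6 group means, each neighboring pair of MLN groups overlapped for 6 of the 9 tested members. For Cacnb3 and Ccl22 MLN T-bet- cDC2s lay above MLN T-bet+ cDC2s without overlap, and for Tbc1d4 above MLN cDC1s. The nearest libraries of the cDC2 subsets were close, at 1465 and 1409 CPM for Cacnb3 and at 1146 and 1133 CPM for Ccl22. None of these differences was called by edgeR (adjusted p = 0.845 for Cacnb3, 0.716 for Ccl22 and 0.415 for Tbc1d4). The step from the lowest MLN group to the highest spleen group was free of overlap for Cacnb3, Socs2, Ccl17 and Ccl22. How many of all genes separate in these ways is not given, so the overlaps are a description.

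The MLN libraries were not alike. In both cDC1 replicate 1 and T-bet+ replicate 1 of the MLN, 8 of the 10 members (all but Il4i1 and Tbc1d4) were below the other 5 MLN libraries, beside 10.3% of all genes tested. The pair was picked by these same genes, so the count is a description. In the libraries' titles both carry the number 1, which no MLN T-bet- library carries, so the split and that number cannot be told apart. Ccr7 was at 2173 to 2556 CPM in this pair, against 7714 to 9742 CPM in the other 5 and 1249.7 to 4845 CPM in spleen. Cacnb3 was at 242 to 544 CPM in the pair, against 1409 to 2646 CPM in the other 5 and 42.4 to 216 CPM in spleen. The pair thus lay within the spleen range for Ccr7, Tmem123, Tbc1d4 and Samsn1 and above it for Cacnb3, Socs2, Ccl17 and Ccl22, and for Fscn1 the cDC1 library alone was above it. The 10 genes took 0.570% and 0.593% of the reads on genes in the pair, 1.65% to 1.9% in the other 5 and 0.272% to 0.743% in spleen, and the widest 95% Wilson interval of such a share was 0.0111 percentage points, for counting error only. Innate lymphoid genes moved with this split: they summed to 21.5 and 45.8 CPM in the pair and to 91.4 to 217 CPM in the other 5. T cell genes summed to 4.67 and 3.65 CPM in the pair and to 12.4 to 19.3 CPM in the other 5. Markers of all conventional DCs also moved with the split within a subset, at 61143 CPM in the low cDC1 library against 27344 and 36610 CPM in the other cDC1 libraries and at 58964 against 35472 CPM in T-bet+ cDC2s, while the T-bet- libraries stood at 55079 and 61536 CPM. The list of Itgae, Cd207, Epcam and Cd24a was at 1101 CPM in the low cDC1 library against 446 and 569 CPM, and Tbx21 at 7.19 against 2.93 CPM in T-bet+ cDC2s. The part of any of these in the split was not tested. Without the pair, 8 members were called higher in MLN cDC1s, 7 in the T-bet- subset and 6 in the T-bet+ subset, where the lone MLN library left is assumed to vary like the other groups. In that fit 9.01%, 5.23% and 5.89% of all genes tested were called higher.

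**Figure D3:**
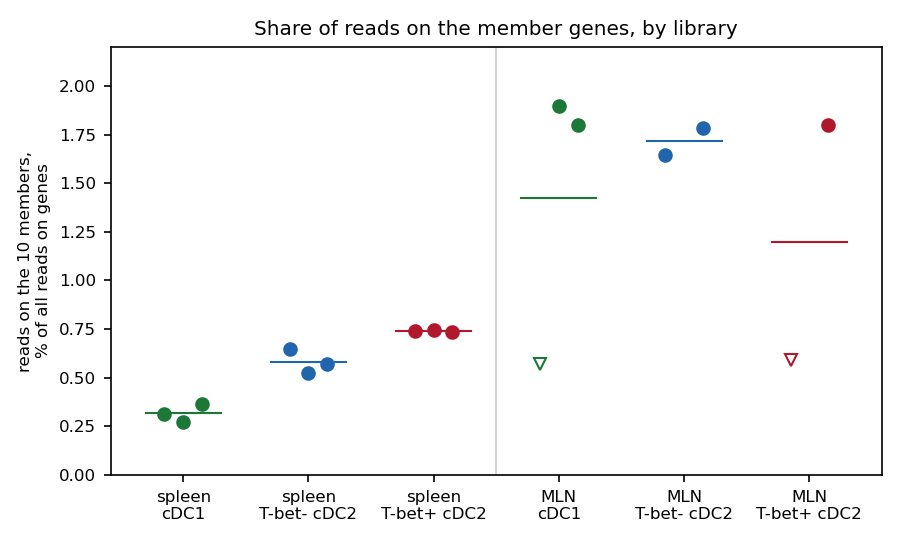
Reads on the 10 genes as a percent of all reads on genes (vertical axis) in each RNA library by tissue and subset (horizontal axis), with lines at group means and open triangles for MLN cDC1 replicate 1 and MLN T-bet+ replicate 1. The triangles sit at 0.570% and 0.593%, within the spleen range, and the other 5 MLN libraries sit between 1.65% and 1.9%.

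Whether the MLN over spleen change differed between subsets was tested as a difference of the 2 changes. No member passed in any of the 3 pairs of subsets by edgeR, beside 0.00595% of all genes for T-bet+ against T-bet- cDC2s, 0.0357% for cDC1s against T-bet- cDC2s and 0.0893% for cDC1s against T-bet+ cDC2s. At an unadjusted p under 0.05 there were 2, 0 and 4 members, beside 847, 991 and 1424 of the 16795 genes tested. DESeq2 called 1, 0 and 1 members, Ccl17 both times. For Ccl22 the change in T-bet+ cDC2s less that in T-bet- cDC2s was 1.77 ± 0.60 on the log2 scale (adjusted p = 0.949), and without both MLN libraries that stood apart the difference was 2.45 (adjusted p = 0.0315). For Ccr7 the difference of cDC1s over T-bet+ cDC2s was 1.73 ± 0.69 (adjusted p = 0.505) and for Fscn1 it was 2.24 ± 0.99 (adjusted p = 0.567).

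Between subsets within spleen, 2 of 9 members differed between T-bet+ and T-bet- cDC2s, beside 4.22% of all genes. Ccl22 was lower in T-bet+ cDC2s by a log2 fold change of -2.52 ± 0.40 (adjusted p = 0.00254), and Ccl17 in T-bet- cDC2s was at least 23.4-fold higher, with T-bet+ cDC2s taken at the floor (adjusted p = 0.00101). Against cDC1s, T-bet+ cDC2s differed in 3 of 9, beside 16.7%. Ccl22 was lower at -2.72 ± 0.40 (adjusted p = 0.000299), Ccl17 in cDC1s was at least 4.07-fold higher by the same floor (adjusted p = 0.00906), a limit that was 1.32-fold for the lowest of the 3 libraries, and Tbc1d4 was higher in T-bet+ cDC2s by 1.88 ± 0.35 (adjusted p = 0.00180). That Ccl17 call rested on cDC1 replicate 3, with 23 of the 33 reads, and was lost without it (adjusted p = 0.0528) and with edgeR's newer dispersion estimate (adjusted p = 0.0990). T-bet- cDC2s differed from cDC1s in Ccl17 alone, beside 14.0%, with a log2 fold change of 2.54 ± 0.67 (adjusted p = 0.0202), lost without T-bet- replicate 2 or cDC1 replicate 1 or 2 (adjusted p = 0.0838, 0.0927 and 0.0834). The median over the members was 0.60, 0.79 and 0.20 in these 3 comparisons, which share libraries, beside -0.02, 0.05 and 0.02 over all genes. In MLN no member differed between subsets by edgeR, beside 0.405% for T-bet+ against T-bet- cDC2s, 8.01% for T-bet+ cDC2s against cDC1s and 7.03% for T-bet- cDC2s against cDC1s. At an unadjusted p under 0.05 there were 0, 2 (Fscn1 and Tbc1d4) and 0 members, beside 1520, 3507 and 3130 of the 16795 genes tested. DESeq2 called none of the members.

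The members moved together to unequal degrees. Over the 16 libraries, Pearson's r of log2 levels was 0.03 to 0.95 for the 36 pairs of tested members, with a median of 0.66, where the points share the contrast of tissues. Cacnb3 and Socs2 were the most alike and Ccl22 and Tbc1d4 the least. Over the 7 MLN libraries alone r was 0.09 to 0.97 with a median of 0.82, where the points share the split described above. The mean of the members' standardized log2 levels ranked all 7 MLN libraries above the 9 spleen libraries. Of 11094 other genes, those most like this mean were Pcgf5 (r = 0.98), RP24-545C12.1, Slc4a8, Tnfrsf9, RP23-129D21.1, Tmem19, Clec2i, Slco5a1, Izumo4 and Uba7 (r = 0.97), over 16 libraries and as a description. Tnfrsf9, the costimulatory receptor 4-1BB, was at 4.73 to 26.2 CPM in spleen and 50.3 to 430 CPM in MLN, and its log2 fold change was 5.04 ± 0.69 in cDC1s, 4.80 ± 0.70 in the T-bet- subset and 3.66 ± 0.67 in the T-bet+ subset (adjusted p = 0.00119, 0.00303 and 0.0101). Its T-bet+ call was lost without MLN T-bet+ replicate 2 (1.88, adjusted p = 0.317), without spleen T-bet+ replicate 1 or 2 (adjusted p = 0.0573 and 0.0505) and with the GC class as a term (adjusted p = 0.126). Slc4a8, a bicarbonate transporter, was at 33.9 to 112 CPM in spleen and 185 to 1324 CPM in MLN.

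Other genes of mature DCs were read from lists chosen for their function. They were drawn up with earlier results of these data known, so their counts are a description. The counts below stand beside the shares of all genes called higher and lower, which were 7.75% and 3.93% in cDC1s, 4.36% and 1.59% in the T-bet- subset and 3.79% and 1.30% in the T-bet+ subset, and a count of 2 or fewer is not read as a result about a list. Of 20 genes for cytokines, enzymes and survival, 14 were higher and 0 lower in MLN cDC1s, 13 higher and 1 lower in the T-bet- subset and 11 higher and 0 lower in the T-bet+ subset, with medians of 2.05, 2.46 and 2.44 on the log2 scale beside 0.01, -0.04 and 0.00 for all genes. Aldh1a2, which makes retinoic acid, rose by 7.13 ± 0.77, 5.56 ± 0.74 and 4.03 ± 0.69 (adjusted p = 0.000308, 0.00148 and 0.00737), from 2.50 to 15 CPM in spleen to 60.8 to 1329 CPM in MLN. Ido1, the tryptophan-degrading enzyme, rose in T-bet- cDC2s, from 0 to 0.491 CPM in spleen to 43.9 to 88.1 CPM in MLN, and in T-bet+ cDC2s, from 0 to 0.415 CPM to 11.0 to 84.9 CPM (adjusted p = 0.00230 and 0.00338). In cDC1s Ido1 was at 4.86 to 7.01 CPM in spleen and 5.23 to 13.8 CPM in MLN (adjusted p = 0.619). Serpinb6b, a protease inhibitor, rose by 2.03 ± 0.58, 5.25 ± 0.69 and 3.93 ± 0.65 and Il2ra, the alpha chain of the interleukin-2 receptor, by 5.07 ± 0.93, 4.37 ± 0.86 and 4.44 ± 0.88 (adjusted p = 0.0370, 0.00144 and 0.00623 for the first, and 0.00534, 0.0105 and 0.0138 for the second). Without MLN T-bet+ replicate 2 the T-bet+ values of Aldh1a2, Serpinb6b and Il2ra were 2.41, 1.77 and 3.21 and missed the threshold (adjusted p = 0.181, 0.211 and 0.253). The cDC1 call of Serpinb6b was lost without any one cDC1 library but MLN replicate 1 (adjusted p = 0.0591 to 0.135). The Il2ra calls were lost in T-bet- cDC2s without MLN replicate 1 or spleen replicate 2 of that subset (adjusted p = 0.0850 and 0.0513) and in T-bet+ cDC2s without spleen replicate 1 or 2 (adjusted p = 0.0650 and 0.0630). With the GC class as a term Serpinb6b was not called in cDC1s or T-bet+ cDC2s (adjusted p = 0.172 and 0.105), nor Il2ra in T-bet+ cDC2s (adjusted p = 0.236).

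Of 10 costimulation and checkpoint ligands, 5 were higher and 2 lower in MLN cDC1s, 2 higher and 0 lower in the T-bet- subset and 2 higher and 1 lower in the T-bet+ subset (medians 1.54, 0.70 and 0.57). Cd40 rose by 1.9 ± 0.32, 1.51 ± 0.34 and 1.38 ± 0.34 (adjusted p = 0.00329, 0.0200 and 0.0340) and Cd200 by 1.99 ± 0.52, 2.90 ± 0.56 and 2.42 ± 0.56 (adjusted p = 0.0256, 0.01 and 0.0269). In T-bet+ cDC2s both calls rested on few libraries: without MLN T-bet+ replicate 2 Cd40 was at 0.57 and Cd200 at 0.81 (adjusted p = 0.564 and 0.574), without any one spleen T-bet+ library the adjusted p was 0.0719 to 0.110 and 0.0741 to 0.105, and with the GC class as a term 0.316 and 0.236. In T-bet- cDC2s the Cd40 call was lost without any one library of that subset but spleen replicate 3 (adjusted p = 0.0557 to 0.162) and the Cd200 call without MLN replicate 1 (adjusted p = 0.0827). The Cd200 call in cDC1s was lost without MLN replicate 2 or 3 or spleen replicate 1 or 2 (adjusted p = 0.0947 to 0.107). Pdcd1lg2, the ligand PD-L2, rose in cDC1s by 5.80 ± 0.51 (adjusted p = 9.20e-05), and in the cDC2s the values were 0.71 ± 0.45 and 0.92 ± 0.45 (adjusted p = 0.343 and 0.207), where spleen levels were already 33.0 to 41.7 CPM against 1.23 to 3.19 CPM in spleen cDC1s. Icosl had values of 1.31, 1.39 and 0.88, none called. The ligands called lower, named after their values were seen, were Cd86, which binds CD28 and CTLA-4, in cDC1s and Cd83, a marker of mature DCs, in cDC1s and T-bet+ cDC2s. Cd83 was at 5004 to 6375 CPM in spleen and 1754 to 3292 CPM in MLN cDC1s (log2 fold change -1.17 ± 0.27, adjusted p = 0.0150) and at 8275 to 10039 CPM and 3802 to 3916 CPM in T-bet+ cDC2s (-1.27 ± 0.31, adjusted p = 0.0327). Cd86 was at 573 to 786 CPM in spleen and 283 to 484 CPM in MLN cDC1s (-0.87 ± 0.26, adjusted p = 0.0451). The Cd86 call was lost without any one cDC1 library but MLN replicate 1 (adjusted p = 0.0712 to 0.184). The Cd83 call was lost in cDC1s without MLN replicate 2 or spleen replicate 1 or 2 (adjusted p = 0.0705, 0.0539 and 0.0559) and in T-bet+ cDC2s without any one library of that subset (adjusted p = 0.0624 to 0.300).

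Of 14 genes of the NF-kB pathway, 5 were higher in cDC1s and 0 lower, 1 higher and 1 lower in the T-bet- subset and 1 higher and 0 lower in the T-bet+ subset (medians 1.06, 0.38 and -0.14). Birc2, an inhibitor of apoptosis that also restrains noncanonical NF-kB signaling, rose by 2.27 ± 0.49, 2.75 ± 0.52 and 2.13 ± 0.52 (adjusted p = 0.0109, 0.00911 and 0.0328). In T-bet+ cDC2s it was at 0.82 without MLN T-bet+ replicate 2 (adjusted p = 0.570) and missed the threshold without any one spleen T-bet+ library (adjusted p = 0.0886 to 0.105) or with the GC class as a term (adjusted p = 0.314). The call was lost in cDC1s without spleen replicate 1 or 2 (adjusted p = 0.0634 and 0.0597) and in T-bet- cDC2s without MLN replicate 1 (adjusted p = 0.0539). Nfkb1 fell by 1.43 on the log2 scale in T-bet- cDC2s (adjusted p = 0.0200), a call lost without MLN T-bet- replicate 1 or 2 or spleen T-bet- replicate 2 (adjusted p = 0.201, 0.123 and 0.0550).

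Among 12 genes of cytoskeleton and motility, 3 were higher in cDC1s and 0 lower, 3 higher and 1 lower in the T-bet- subset and 2 higher and 1 lower in the T-bet+ subset (medians 0.95, 0.10 and -0.12). Anxa3, an annexin, rose by 4.02 ± 0.68, 3.19 ± 0.68 and 2.92 ± 0.68, while Ezr, which links actin to the membrane, had values of -0.56, -1.23 and -0.85 and was called lower in both cDC2 subsets (adjusted p = 0.0745, 0.00809 and 0.0454). Without MLN T-bet+ replicate 2 the T-bet+ values were 1.45 for Anxa3 and -0.62 for Ezr (adjusted p = 0.509 and 0.505), and neither call held there without any one spleen T-bet+ library (adjusted p = 0.0537 to 0.105 and 0.0705 to 0.123) or with the GC class as a term (adjusted p = 0.316 and 0.223). The T-bet+ call of Ezr was also lost with DESeq2's size factors and without a filter on low counts (adjusted p = 0.0565 and 0.126). In T-bet- cDC2s both calls were lost without MLN replicate 1 or 2 (adjusted p = 0.0642 and 0.0704 for Anxa3, 0.0880 and 0.0926 for Ezr), and that of Anxa3 also without spleen replicate 2 (adjusted p = 0.0681). Of 8 tested partners of the members, 2 were higher in cDC1s and 0 lower, 1 higher and 2 lower in the T-bet- subset and 1 higher and 0 lower in the T-bet+ subset (medians 1.51, 1.54 and 0.43). Cx3cl1 rose by 3.34 ± 0.75, 3.86 ± 0.81 and 3.94 ± 0.84 (adjusted p = 0.0145, 0.0146 and 0.0184). Without MLN T-bet+ replicate 2 its T-bet+ value was 2.76 (adjusted p = 0.317), and that call was also lost without spleen T-bet+ replicate 1 or 2 (adjusted p = 0.0681 and 0.0514). The cDC1 call of Cx3cl1 was lost without MLN replicate 2 or spleen replicate 1 or 2 (adjusted p = 0.0635, 0.0697 and 0.0745) and the T-bet- call without MLN replicate 1 or 2 or spleen replicate 1 (adjusted p = 0.0623, 0.0563 and 0.0513). The CCR7 ligand gene Ccl21a, the other partner called higher in cDC1s, was at 2.18 CPM or less in every library, and its call was lost without any one cDC1 library but MLN replicate 1 (adjusted p = 0.0657 to 0.159). Of 13 tested relatives of the members in their own gene families, 2 were higher and 1 lower in cDC1s, 0 in either direction in the T-bet- subset and 1 higher in the T-bet+ subset (medians 0.06, -0.04 and -0.45). The channel subunit gene Cacnb1 stood at 2.26 to 15.1 CPM over the 16 libraries and Cacnb2 at 0.154 to 17.5 CPM, against 42.4 to 2646 CPM for Cacnb3. Cacnb2 was lower in MLN cDC1s by a log2 fold change of -2.57 ± 0.78 (adjusted p = 0.0473), lost without MLN replicate 2 or 3 or spleen replicate 1 or 2 of that subset (adjusted p = 0.115, 0.121, 0.1 and 0.136).

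**Figure D4:**
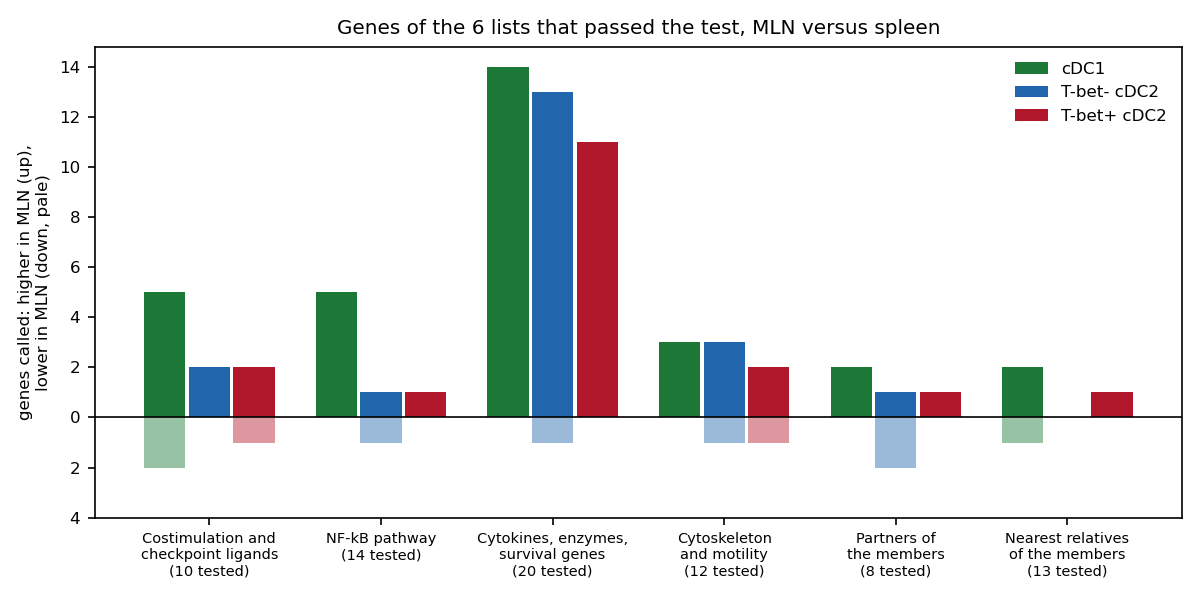
Number of genes that passed the test (vertical axis) as higher in MLN (upward bars) or lower in MLN (pale downward bars) for 6 gene lists (horizontal axis, with the number tested), in cDC1s (green), T-bet- cDC2s (blue) and T-bet+ cDC2s (red). The list of cytokines, enzymes and survival genes holds the most, 14, 13 and 11 of 20.

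Openness at the 10 loci was compared between the spleen subsets, since ATAC-seq was made from spleen alone. Of 160 windows tested, 22 were more open and 4 less open in T-bet+ cDC2s than in their T-bet- counterparts (adjusted p under 0.01 with a log2 fold change past 0.5 in size), beside 6.28% of all windows in either direction, and 16 of the 22 were at Tbc1d4. Against cDC1s, T-bet+ cDC2s had 29 more open and 21 less open, beside 23.0%, and T-bet- cDC2s had 11 more open and 23 less open, beside 17.9%. Scaling by library size alone turned the split over all windows for T-bet+ cDC2s against cDC1s from 18359 more and 19957 less open to 13058 and 23624, with the median over all windows at -0.18. The median log2 fold change over the windows at the loci was 0.33, 0.02 and -0.25 in these comparisons, beside -0.01, 0.00 and 0.01 over all windows. Tbc1d4 had 51 windows tested, with a median log2 fold change of 0.90 for T-bet+ over T-bet- cDC2s and none less open. Samsn1 had 44 tested, of which 3 were more and 2 less open in that comparison. At Il4i1, 12 windows lie equally close to Nup62 or Tbc1d17. Neighboring windows can overlap and share reads, so they are not independent counts.

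Motif matches are given as a description. The NF-kB-like sequence was in 6 of the 166 windows at the loci (3.61%, against 3.45% of all windows), AP-1 in 17 (10.2% against 7.90%), STAT in 8 (4.82% against 4.29%) and the composite ETS-IRF sequence in 4 (2.41% against 6.80%). Of 10 RefSeq promoters that matched a member, which are of 8 genes and leave out Ccr7 and Socs2, none held the NF-kB-like or AP-1 sequence (5.82% and 7.81% of all promoters), 1 of Samsn1 held ETS-IRF (8.24%) and that of Ccl17 held STAT.

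**Figure D5:**
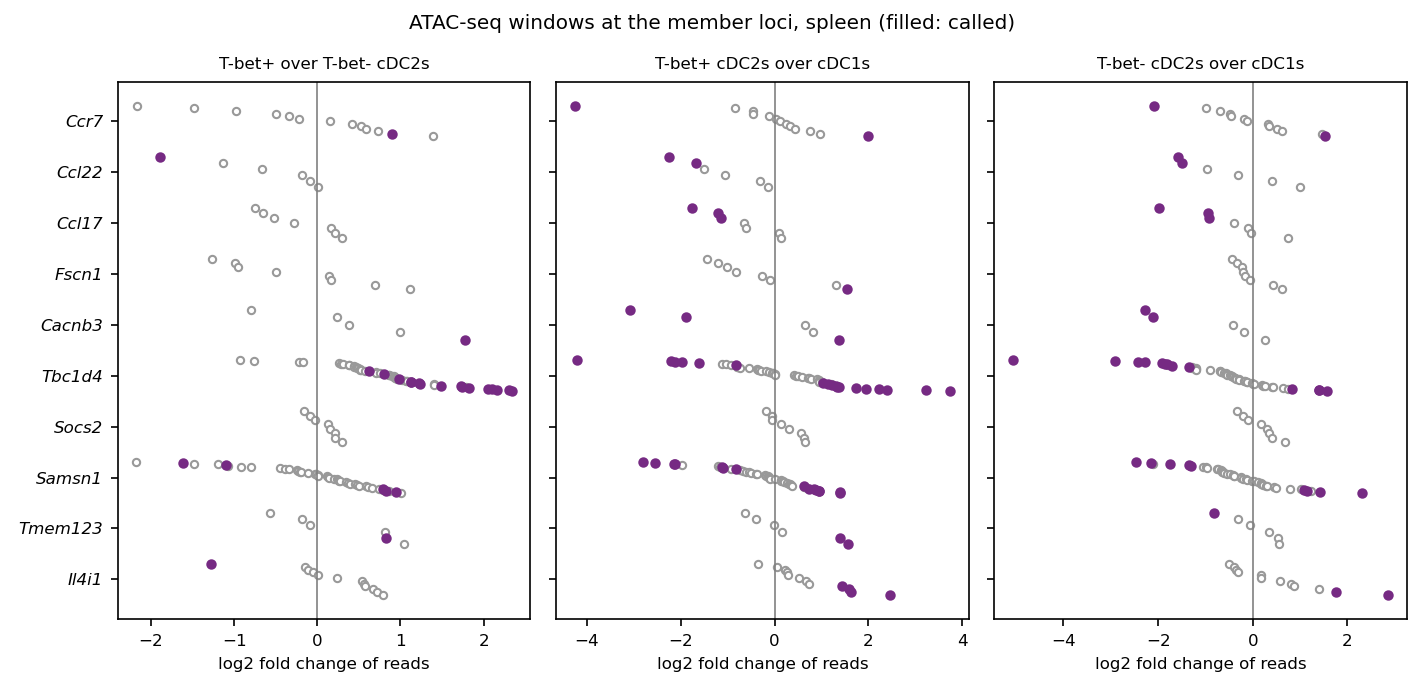
Log2 fold change of reads (horizontal axes) for every tested ATAC-seq window at the 10 loci (vertical axis), 1 point per window, in the 3 comparisons of spleen subsets, with filled points for called windows. At Tbc1d4 all 16 called windows of the left panel lie to the right of 0, while Socs2 has no filled point in any panel.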

How the data were processed

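The 16 RNA-seq libraries cover 3 cDC subsets of spleen and MLN, and the 6 ATAC-seq libraries the same subsets of spleen. Sequencer models are not given per library. The raw counts per gene were deposited by the authors, who aligned reads to mm10 (GRCm38) with HISAT2 2.1.0, retained reads with a unique alignment and assigned them to GENCODE genes. The counts in 150-base summit windows were deposited by the authors after Bowtie2 2.2.5 alignment, a shift of reads by 4 or 5 bases according to strand, and MACS2 2.1.1.20160309 peak calling on all replicates together. SAMtools 1.9 and R 3.4.0 are named in the submitters' processing notes too. The score column of the peak file, as deposited, is a constant 0, and the -log10 p column of the summit file, as deposited by the authors and inferred from its values, was not used.

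Genes and windows were kept by filterByExpr and normalized by TMM in edgeR 4.0.16 (R 4.3.3). All 16 RNA libraries entered one fit with 1 coefficient for each of the 6 groups (10 residual degrees of freedom), and the 6 ATAC-seq libraries another (3 degrees). The quasi-likelihood test was adjusted by Benjamini-Hochberg over all 16795 genes or 166547 windows, with thresholds of 0.05 for RNA and, for ATAC-seq, of 0.01 with a log2 fold change past 0.5 in size. The scripts were tested on simulated counts. Folds against libraries at 3 counts or fewer are lower bounds. CPM use TMM library sizes, and RPKM divide them by exon length in GENCODE M21, which also gave positions, promoters within 2 kb of a start and the closest gene.

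The members and lists were chosen with earlier results of these data known. Up to 4 genes per list are named, those with the largest absolute value of the mean log2 change over the 3 tissue comparisons, and the 10 genes most like the members are those with the highest Pearson r among genes that average 50 normalized counts or more. Printed windows are, at each locus, the called window of lowest adjusted p over the 3 comparisons with no other gene equally close, plus the Ccr7 window nearest to a start, and were chosen after seeing the data. Library class was set by a Spearman correlation above 0.1 between a library's deviation from the mean log2 level of each gene and the GC content of the most GC-rich 100 bases of its transcript. Alternatives were DESeq2 1.42.0, its size factors, no filter, edgeR's newer dispersion estimate, the replicate number or library-name number as a block, GC class as a term, fewer libraries in the fit, other thresholds, whole peaks, library size only, and each library left out in turn. A fit without both MLN libraries that stood apart was chosen after seeing the data. Where a sentence of the paper's methods swaps RFP- and RFP+ between the cDC2 subsets, the sample labels were used. Across all libraries, replicate numbers did not pair the samples: deviations of same-numbered libraries correlated at -0.41 to 0.38 for RNA and at -0.04 to 0.02 for ATAC-seq. Within MLN, the 5 pairs that share a number in the library name correlated at 0.025 to 0.38 (median 0.14).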

Additional observations from a re-analysis of the deposited data

How the results depend on the processing

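Counts of members called moved with the fit as follows. Without a filter on low counts, which tests all 34047 genes, 8 members were called in T-bet- cDC2s (5 before), 4 in the difference of the tissue change between T-bet+ and T-bet- cDC2s (0), 4 in that between cDC1s and T-bet+ cDC2s (0), 6, 5 and 5 in spleen for T-bet+ against T-bet- cDC2s, T-bet+ cDC2s against cDC1s and T-bet- cDC2s against cDC1s (2, 3 and 1), and 3 and 1 in MLN for T-bet+ cDC2s and for T-bet- cDC2s against cDC1s (0 and 0). DESeq2 called 1 in each of these 2 differences and 3 in spleen T-bet- cDC2s against cDC1s. With both low MLN libraries left out the differences had 1 member each, and spleen T-bet+ and T-bet- cDC2s against cDC1s had 5 and 4. With only spleen libraries these had 5 and 3. The GC class left 2 members in T-bet+ cDC2s (4). Leaving out one library gave 5 to 8 members in cDC1s, 3 to 5 in T-bet- cDC2s (3 without MLN T-bet- replicate 2), 2 to 5 in T-bet+ cDC2s (2 without MLN T-bet+ replicate 2 or any spleen T-bet+ library), 0 to 1 in spleen T-bet- cDC2s against cDC1s (0 without T-bet- replicate 2 or cDC1 replicate 1 or 2) and 0 to 2 in MLN T-bet+ cDC2s against cDC1s (2 without T-bet+ replicate 2, 1 without cDC1 replicate 1).

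The replicate number as a block left the 12 RNA counts of members at the same values (7, 5 and 4 in the tissue comparisons), and the ATAC-seq counts at 26, 49 and 32 (26, 50 and 34). The library-name number as a block gave 2 in spleen T-bet- cDC2s against cDC1s. Under both blocks Cd40, Ezr, Cd83 and Tlr3 in T-bet+ cDC2s and Serpinb6b, Ccl21a and Cacnb2 in cDC1s were not called (adjusted p = 0.0505 to 0.0733), nor was Birc2 in T-bet+ cDC2s under the replicate number (adjusted p = 0.0518). Across all libraries neither number paired the samples. Within MLN, the 5 pairs that share a library-name number correlated at 0.025 to 0.38, and pairing within MLN alone was not tested. ATAC-seq windows called were 40 and 9 for T-bet+ against T-bet- cDC2s under a looser and a stricter threshold and 13 by DESeq2, and 8 to 25 without one library (12 and 8 without T-bet- replicates 1 and 2, 16 without T-bet+ replicate 1). They were 33 and 33 for T-bet+ cDC2s against cDC1s and 22 and 20 for T-bet- cDC2s against cDC1s (stricter threshold and DESeq2), and 22 to 27 without one library in the latter. Over all genes, T-bet+ cDC2s had 636 higher and 219 lower in MLN, 42 and 21 with the GC class, 1674 and 1102 by DESeq2, 1473 and 1402 without a filter, and 1286 and 1651 with libraries of that subset alone, 26 and 10 without MLN T-bet+ replicate 2, and 127 and 51, 163 and 68, and 202 and 86 without spleen T-bet+ replicate 1, 2 or 3. For cDC1s 1301 and 660 became 1986 and 1546 by DESeq2, 1787 and 1610 without a filter, 557 and 217 with the GC class and 873 and 352 with that subset alone. For T-bet- cDC2s 733 and 267 became 1294 and 980 by DESeq2, 1370 and 1065 without a filter, 1190 and 498 with the newer dispersion estimate and 449 and 152 with the library-name number as a block. For T-bet+ cDC2s the newer estimate gave 997 and 441, and leaving out both low MLN libraries 1099 and 333. Between T-bet+ and T-bet- cDC2s, 253 and 456 in spleen became 555 and 1075 by DESeq2, 957 and 858 without a filter and 119 and 280 with the GC class, and 11 and 57 in MLN became 173 and 280, 221 and 303, and 23 and 84, with 60 and 163 by the newer estimate, 0 and 0 with MLN libraries alone and 2 and 23 without both low libraries. In MLN against cDC1s, 847 and 498 for T-bet+ cDC2s became 1194 and 891 by DESeq2 and 459 and 153 without both low libraries, and 817 and 363 for T-bet- cDC2s became 1161 and 650 by DESeq2 and 1160 and 633 without a filter. The 1, 6 and 15 genes called in the differences between subsets became 31 and 11, 63 and 59, and 99 and 149 by DESeq2 (positive and negative), 97 and 89, 131 and 130, and 238 and 237 without a filter, and 17 and 3, 38 and 34, and 19 and 88 without both low libraries.

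Signs turned in T-bet+ cDC2s for Ccr7 (-0.24 with the GC class) and Tbc1d4 (0.018 by DESeq2 and with its size factors, 0.32 with both low MLN libraries left out). Without one library the log2 fold change there ran from -0.98 to 0.90 for Ccr7, -0.052 to 2.13 for Fscn1, -1.38 to 1.19 for Tmem123, -0.41 to 0.29 for Tbc1d4, -2.66 to 3.63 for Ccl19 and -1.16 to 1.27 for Cacnb1, each lowest without MLN T-bet+ replicate 2. For the printed ATAC-seq windows it ran from -0.23 to 1.30 at Fscn1 (T-bet- cDC2s against cDC1s), and for T-bet+ against T-bet- cDC2s from -1.42 to 0.078 at Cacnb3 and from -0.14 to 0.75 at Ccl17. Of 477 alternative values of single members, 418 kept direction and side of the threshold, and 168 alternative values of other genes named by the rule or in the text lost a call. The causes were not tested. With 2 or 3 libraries a group, and 0 to 23 reads of Ccl17 in spleen cDC1 and T-bet+ libraries, small differences were not detectable.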
